A study of Mus musculus with 6 samples.

Results

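The 9 genes Tbx21, Gata3, Rora, Ahr, Bcl6, Prdm1, Irf4, Id2 and Id3, which encode transcription regulators of the Th1, Th2, Th17, follicular helper and effector regulatory T cell programmes, were followed in regulatory T cells (Tregs) with and without floxed Junb. They were chosen by symbol, each matched 1 Ensembl gene among the 53379 in the count tables, and all 9 were among the 20475 genes with enough reads to be tested. RNA was sequenced from sorted Tregs of C57BL/6 mice aged 3 months. The 3 WT libraries came from Foxp3YFP-CrexJunb+/+ mice and the 3 bKO libraries from Foxp3YFP-CrexJunbFlox/Flox mice, so both groups carried the Cre allele. Cre is driven by Foxp3 and removes floxed sequence in cells that have expressed Foxp3. The labels do not say whether a library was made from 1 animal or from several.

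Helper T cell subsets are set up by lineage factors that also act inside Tregs. T-bet (Tbx21), GATA3, BCL6 and RORα (Rora) direct Th1, Th2, follicular helper and Th17 cells, and Tregs that express the same factor adapt to the matching kind of inflammation. IRF4 binds DNA together with BATF-JUN dimers, JunB among them, and with BLIMP-1 (Prdm1) it drives the change from a resting Treg to an effector Treg that makes IL-10. ID2 and ID3 bind no DNA themselves. They hold E proteins such as E2A away from it.

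On GRCm38 with GENCODE M21, the members lie as follows: Tbx21 on chromosome 11 from 97098071 to 97115331 (minus strand), Gata3 on chromosome 2 from 9857078 to 9890034 (minus strand) and Rora on chromosome 9 from 68653786 to 69388246 (plus strand). The next 3 are Ahr on chromosome 12 from 35497974 to 35535038 (minus strand), Bcl6 on chromosome 16 from 23965052 to 23988852 (minus strand) and Prdm1 on chromosome 10 from 44437177 to 44528501 (minus strand). The last 3 are Irf4 on chromosome 13 from 30749226 to 30766976 (plus strand), Id2 on chromosome 12 from 25093799 to 25097140 (minus strand) and Id3 on chromosome 4 from 136143497 to 136145755 (plus strand). Their merged exons run from 1791 bases (Id3) to 13071 bases (Rora).

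The 250 bases before the RefSeq start of Tbx21, Prdm1 and Irf4 are given here because Tbx21 was the member whose WT and bKO libraries did not overlap and because Prdm1 and Irf4 had the most similar profiles of any pair of members. The sequences are from RefSeq on GRCm38.p6, which had windows for 8 of the 9 members (9 windows, 2 of them for Bcl6). They are written 5′ to 3′ in the direction of transcription, and capitals mark the letters TGANTCA, the AP-1 site, where N is any base.
Tbx21, chr11:97115332-97115581, minus strand: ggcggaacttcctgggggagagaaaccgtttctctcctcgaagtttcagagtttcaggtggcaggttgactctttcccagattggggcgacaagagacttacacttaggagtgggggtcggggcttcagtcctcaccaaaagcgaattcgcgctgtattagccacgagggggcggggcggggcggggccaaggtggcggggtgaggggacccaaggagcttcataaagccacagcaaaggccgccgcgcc
Prdm1, chr10:44458749-44458998, minus strand: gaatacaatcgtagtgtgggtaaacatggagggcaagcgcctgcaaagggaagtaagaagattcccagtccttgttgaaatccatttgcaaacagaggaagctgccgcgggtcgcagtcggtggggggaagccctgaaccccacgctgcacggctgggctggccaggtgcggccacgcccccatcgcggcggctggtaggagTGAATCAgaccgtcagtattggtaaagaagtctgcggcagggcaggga
Irf4, chr13:30748983-30749232, plus strand: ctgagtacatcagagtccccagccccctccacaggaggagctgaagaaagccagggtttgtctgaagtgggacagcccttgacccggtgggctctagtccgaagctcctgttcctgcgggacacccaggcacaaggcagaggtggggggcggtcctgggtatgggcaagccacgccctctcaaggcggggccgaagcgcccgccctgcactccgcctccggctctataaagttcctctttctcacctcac
The start used for Prdm1 is that of the coding transcript Prdm1-201, at 44458748, which lies 69753 bases inside the gene as annotated. The outer end at 44528501 belongs to Prdm1-203, a transcript with a retained intron. The start of Tbx21 is the 5′ end of the annotated gene and that of Irf4 lies 7 bases inside it.

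The AP-1 letters were found in 1 of the 9 windows of members, that of Prdm1, as TGAATCA, with the first base 48 bases before the Prdm1-201 start. Of the 32851 windows of all genes, 6.75% hold these letters on either strand. The cyclic AMP response element TGACGTCA and the paired IRF letters GAAA NN GAAA were also searched on both strands. They were in 0 windows of members, and in 1.55% and 2.98% of all windows. None of the 3 motifs contains another. Such matches describe the windows and do not show binding.

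Library totals lay between 33784183 and 41231173 counts. Junb itself stood at 84.7 ± 6.32 CPM (counts scaled to the library size, with TMM factors) in WT and 54.7 ± 4.38 CPM in bKO (mean ± SD, n = 3, as for all such values), 64.5% of the WT level, with no overlap. Over all genes edgeR called 0 of 20475 (0%) at an adjusted p of 0.05 and 590 (2.88%) had an unadjusted p under 0.05, 1.48% lower and 1.40% higher in bKO. Limma-voom called 0, with 750 unadjusted, and DESeq2 called 37 of the 19631 genes it gave an adjusted p (0.188%). Treg markers were uneven between libraries: the summed level of 10 Treg markers was 2501 to 2823 CPM in WT, and 1194, 2039 and 2716 CPM in bKO replicates 1 to 3. The lineage factor Foxp3, one of the 10, stood at 28.1, 29.4 and 39.0 CPM in bKO replicates 1 to 3 and between 32.7 and 39.5 CPM in WT. The summed level of 10 conventional CD4 T cell markers was 1479 to 1951 CPM in WT, and 2526, 2154 and 1604 CPM in bKO. Markers of B cells summed to between 138 and 1109 CPM in WT and between 531 and 729 CPM in bKO, and those of myeloid cells to between 235 and 1233 CPM and between 561 and 1339 CPM. WT replicate 2 was the highest WT library for both. The part of these differences in the results below was not tested. In bulk RNA fewer cells of a type and less RNA per cell cannot be told apart.

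Per kilobase of exon, the members fell into 3 abundant genes and 6 scarce ones. Id3 led in WT at 116 ± 8.63 CPM per kilobase, followed by Id2 at 81.9 ± 21.1 and Gata3 at 57.8 ± 9.22. Every WT library had Id3 first, then Id2 and then Gata3, although Id3 and Id2 were close in WT replicate 2, at 106.4 and 106.2 CPM per kilobase. The next gene, Irf4, stood at 6.44 ± 1.30 CPM per kilobase in WT. Rora (4.02 ± 1.25), Bcl6 (2.76 ± 0.356), Tbx21 (2.10 ± 0.294), Prdm1 (2.06 ± 0.0459) and Ahr (1.52 ± 0.193 CPM per kilobase) completed the order. The WT ranges of Irf4 and Rora, of Rora and Bcl6, and of Tbx21 and Prdm1 overlapped, so the order within these pairs lies inside the spread. In bKO Gata3 also came after Id2 and Id3 in each library, but Id2 stood above Id3 in replicates 1 and 2. The lowest of the 9 was Prdm1 in bKO replicate 1, Tbx21 in bKO replicate 2 and Ahr in bKO replicate 3.

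**Figure D1:**
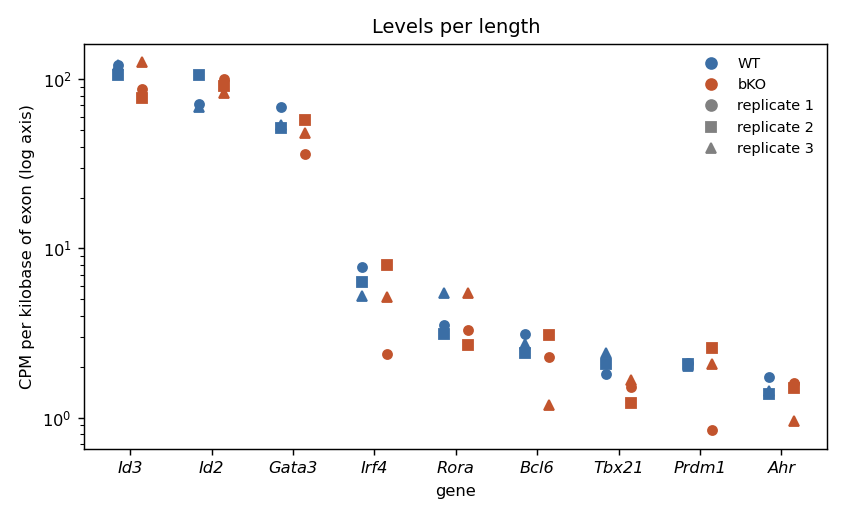
Level of each member per kilobase of merged exons (log axis) in the 3 WT (blue) and 3 bKO (orange) libraries, ordered by the WT mean, with marker shape for the replicate. Id3, Id2 and Gata3 stand above 36 CPM per kilobase in every library, and the other 6 members stay below 9.

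Between genotypes 8 of the 9 members had a lower mean in bKO, against 49.1% of all genes tested, and Id2 had a higher one. None was called by edgeR's quasi-likelihood test: the adjusted p was 0.9999 for each, and the unadjusted p lay between 0.155 (Tbx21) and 0.806 (Rora), so 0 of 9 were under 0.05. Junb, the targeted gene, also had an adjusted p of 0.9999 by this test (log2 difference -0.63, SE 0.13). The absence of a call therefore does not show that a member was unchanged. DESeq2 and limma-voom called 0 of 9 as well. In 1 of the 9, Tbx21, the bKO libraries did not overlap the WT libraries, and over all genes this held for 7.76%, 4.07% lower and 3.68% higher in bKO. The median log2 difference of the members was -0.26, where that of all genes tested was 0.0055. The 95% intervals were wide. They ran from -0.30 to 0.62 for Id2 and from -1.30 to 0.68 for Irf4, so the spread between libraries leaves room for differences of these sizes in either direction. Without bKO replicate 1 the number of members with a lower estimate was 5 in place of 8, since Prdm1, Irf4 and Rora changed sign. In the 10 lists of related genes described below edgeR and DESeq2 called 0 genes, and the number with an unadjusted edgeR p under 0.05 was 0 to 4 a list.

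**Figure D2:**
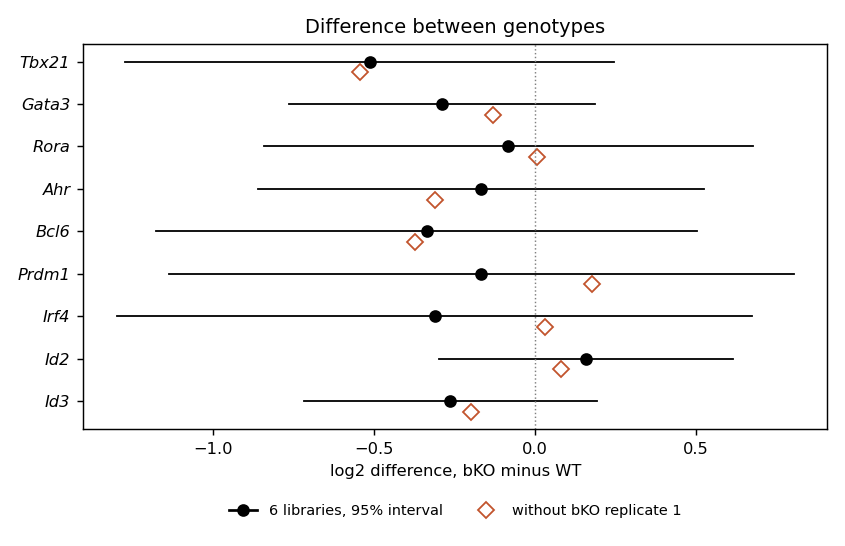
Log2 difference of each member, bKO minus WT, from edgeR on all 6 libraries (black circles, with 95% intervals) and without bKO replicate 1 (open orange diamonds). Every interval includes 0, and Prdm1, Irf4 and Rora lie on the other side of 0 once that library is left out.

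Tbx21, the gene of T-bet, the Th1 factor that also marks Tregs of type 1 inflammation, was scarce in these cells. It had 4.51, 5.17 and 5.97 CPM in WT replicates 1 to 3 and 3.79, 3.03 and 4.15 CPM in bKO replicates 1 to 3. All bKO libraries lay below the lowest WT library. The means were 5.22 ± 0.732 and 3.66 ± 0.573 CPM, a log2 difference of -0.51 (SE 0.32, edgeR unadjusted p = 0.155) with an exact two-sided permutation p of 0.1, the smallest that 3 against 3 libraries allow. The raw counts behind these values were 156, 177 and 241 in WT and 143, 106 and 154 in bKO. The estimate stayed between -0.62 and -0.39 with each library left out in turn.

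The Th1 genes around Tbx21 did not share a direction. Of 23 tested 11 had a lower and 12 a higher mean in bKO (median log2 difference 0.060), and edgeR called 0. The number lower was 7 without bKO replicate 1 or without WT replicate 2, and the median was -0.16 without bKO replicate 3. Cxcr3, a chemokine receptor that T-bet induces, stood at 136 ± 14.8 CPM in WT and 124 ± 43.9 CPM in bKO, where replicates 1 and 2 were near 98 and replicate 3 was at 174.5 CPM. Ifng, the gene of the Th1 cytokine, was at 3.997 ± 0.688 and 5.85 ± 4.66 CPM, again with bKO replicate 3 highest at 10.99 CPM. Eomes, the T-box relative of T-bet, was at 2.49, 2.72 and 2.38 CPM in WT and at 7.82, 6.34 and 2.13 CPM in bKO, so that bKO replicates 1 and 2 stood above WT and replicate 3 below. The IL-12 receptor chain Il12rb2 (3.43 ± 1.24 and 2.93 ± 0.998 CPM) and the interferon receptor chain Ifngr1 (178 ± 23.2 and 189 ± 64.7 CPM) overlapped between genotypes. Chosen after their values were seen, Fasl (5.72 ± 3.18 and 11.7 ± 2.21 CPM) and Zeb2 (7.06 ± 4.51 and 16.0 ± 1.91 CPM) were the 2 genes of this list whose libraries did not overlap. Both were higher in bKO, and over all genes 3.68% were higher with no overlap. Fasl, Zeb2 and Eomes are also expressed by cytotoxic lymphocytes, and the summed level of 10 CD8 T and NK cell markers, Eomes among them, was 93.8 to 189 CPM in WT and 135 to 226 CPM in bKO. Its part in these values was not tested.

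Gata3, the Th2 factor that in Tregs supports Foxp3 expression and accumulation at inflamed sites, was the third most abundant member. It stood at 272, 204 and 213 CPM in WT and at 143, 229 and 192 CPM in bKO replicates 1 to 3. Replicates 1 and 3 of bKO were below every WT library, and replicate 2 was above 2 of the 3. The log2 difference was -0.29 (SE 0.20, unadjusted p = 0.193), and -0.13 without bKO replicate 1. Gata3 shares 232 exon bases with 2 other annotated genes, and Rora, Ahr and Bcl6 share 82, 127 and 21 with 1 each, so a small part of their counts may belong to those. Tbx21, Prdm1, Irf4, Id2 and Id3 share none.

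Among the Th2 genes 13 of 17 tested had a lower mean in bKO (median log2 difference -0.36), and edgeR called 0. With a library left out the median ranged from -0.57 (without bKO replicate 3) to -0.20 (without bKO replicate 2), and it was -0.24 without bKO replicate 1. Il1rl1, the receptor for the alarmin IL-33, which GATA3-expressing Tregs carry, ranged from 8.21 to 25.6 CPM in WT and from 6.57 to 14.2 CPM in bKO. Il4 was low in all libraries, at 4.69 ± 0.722 CPM in WT and 2.83 ± 1.45 CPM in bKO, with no overlap between genotypes, and Il13 had 9 counts in all 6 libraries together. The IL-4 receptor chain Il4ra (124 ± 13.9 and 129 ± 34.5 CPM) and its signal transducer Stat6 (188 ± 12.2 and 187 ± 39.4 CPM) were as abundant in bKO as in WT by their means, with overlapping libraries. Maf, a factor that helps induce IL-4 and IL-10, was at 251 ± 55.1 and 196 ± 75.9 CPM. Besides Il4, the genes with no overlap were Il10, Ccr8 and Gfi1, all lower in bKO, the last 2 named after their values were seen. Over all genes 4.07% were lower with no overlap. The chemokine receptor gene Ccr8 stood at 30.9, 25.2 and 32.9 CPM in WT and 10.5, 17.4 and 20.2 CPM in bKO.

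Rora encodes a retinoic acid receptor-related orphan receptor that promotes Th17 cells and is also expressed by Tregs of skin and gut. It stood at 45.9, 40.5 and 71.1 CPM in WT and at 43.0, 35.0 and 70.9 CPM in bKO replicates 1 to 3. Replicate 3 was the high library in both genotypes, and the spread between libraries of a genotype (1.75-fold in WT and 2.03-fold in bKO) exceeded the difference between the means (52.5 ± 16.3 and 49.6 ± 18.8 CPM). The log2 difference was -0.082 (SE 0.32). It was 0.19 without WT replicate 3 and -0.43 without bKO replicate 3. With a term for the number in the table names, described at the end, which both high libraries share, it was -0.31 (edgeR unadjusted p = 0.206).

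Il17a, the gene of the cytokine that defines Th17 cells, had 0 counts in all 6 libraries, which for a library allows up to 3 counts or 0.0743 to 0.0876 CPM, counting error only. Il23r, the gene of an IL-23 receptor chain, had 146 counts in all, most of them in bKO replicate 2 (3.34 CPM). Ccr6, a chemokine receptor of Th17 cells and of some Tregs, was at 25.6, 35.9 and 27.5 CPM in WT and at 5.91, 30.6 and 21.4 CPM in bKO, with bKO replicate 1 lowest. Stat3, which relays IL-6 and IL-23 signals, overlapped between genotypes (169.5 ± 23.9 and 152 ± 7.30 CPM). Of 15 Th17 genes tested 9 had a lower mean (median log2 difference -0.16), and the median was 0.097 without WT replicate 1 and 0.053 without WT replicate 3. The JunB partner Batf (90.4 ± 12.6 and 58.8 ± 15.1 CPM) and the hypoxia factor Hif1a (120 ± 13.3 and 82.3 ± 12.5 CPM) were lower with no overlap, and the TGF-beta receptor chain Tgfbr2 (91.9 ± 8.18 and 112 ± 8.51 CPM) was higher with no overlap, Hif1a and Tgfbr2 being named after their values were seen. EdgeR called 0 of the 15, and over all genes 4.07% were lower and 3.68% higher with no overlap.

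Ahr, the receptor for dioxin and for ligands from diet and microbes, which shapes gut Tregs and Th17 cells, was the scarcest member per length in WT. It stood at 10.7, 8.56 and 8.80 CPM in WT and at 9.88, 9.22 and 5.90 CPM in bKO. Replicate 3 of bKO was the lowest library, and the other bKO libraries lay within the WT range. The log2 difference was -0.17 (SE 0.29), and 0.027 without bKO replicate 3. Of the 4 defining target genes, Cyp1b1 had 0 counts, the repressor gene Ahrr had 37 counts in all, and Cyp1a1 had 161 counts, all of them in bKO replicate 3 (4.34 CPM). Tiparp, a target that other signals also induce, overlapped between genotypes (7.23 ± 1.90 and 6.998 ± 3.04 CPM). The cytosolic chaperones that hold the receptor, Hsp90ab1 (1004 ± 72.7 and 888 ± 75.6 CPM) and Ptges3 (330 ± 14.1 and 310 ± 26.7 CPM), were abundant. Of 14 pathway genes tested 10 had a lower mean (median log2 difference -0.089), edgeR called 0, and 0 had libraries that did not overlap. With 7 genes lower in each case, the median was -0.0012 without WT replicate 1 and -0.015 without bKO replicate 3.

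Bcl6, the repressor that defines follicular helper cells and follicular Tregs, varied more within bKO than between genotypes. It stood at 20.99, 16.2 and 18.3 CPM in WT and at 15.3, 20.7 and 7.98 CPM in bKO replicates 1 to 3. Replicate 3 of bKO was at 44.3% of the mean of the other bKO libraries, and among 10203 genes with a mean of 10 CPM or more 2.73% were as low or lower there. The log2 difference was -0.34 (SE 0.36, unadjusted p = 0.375), and -0.042 without bKO replicate 3. Bcl6 is also a gene of germinal centre B cells, and the summed B cell markers stood at 194, 1109 and 138 CPM in WT and at 729, 596 and 531 CPM in bKO replicates 1 to 3. The library with the lowest Bcl6 had the lowest sum within bKO, and the one with the lowest Bcl6 in WT, replicate 2, had the highest sum of all. Their part in the Bcl6 values was not tested.

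Of 24 follicular helper genes 16 had a lower mean in bKO (median log2 difference -0.099), and edgeR called 0. Without WT replicate 1 the number was 11 and the median 0.025, and the median was -0.20 without bKO replicate 2 and -0.16 if either of the other WT libraries was left out. Cxcr5, the receptor that brings T cells into the follicle, was at 93.5, 94.4 and 69.5 CPM in WT and 66.4, 82.1 and 59.0 CPM in bKO, with overlap. Pdcd1, the gene of the inhibitory receptor PD-1, was at 229 ± 25.2 and 169.9 ± 35.0 CPM with no overlap (log2 difference -0.43, SE 0.18). Nfatc1 (151 ± 12.3 and 126 ± 3.78 CPM) was also lower with no overlap, and Cd40lg (21.6 ± 3.83 and 29.8 ± 3.19 CPM) higher, both named after their values were seen. The shares over all genes were 4.07% lower and 3.68% higher with no overlap. Sh2d1a, the adaptor SAP (121 ± 20.9 and 114 ± 19.9 CPM), Il21 (1.52 ± 1.31 and 1.56 ± 1.42 CPM), the lymph node homing receptor Ccr7 (249 ± 28.4 and 301 ± 67.3 CPM) and the selectin ligand Selplg (472 ± 19.1 and 440 ± 18.3 CPM) overlapped.

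Prdm1 encodes BLIMP-1, a repressor that effector Tregs express and that Il10 expression in them requires. It was the least variable member in WT, at 11.7, 11.6 and 11.2 CPM, and among the most variable in bKO, at 4.69, 14.5 and 11.6 CPM in replicates 1 to 3. Replicate 1 of bKO was the lowest of the 6 libraries, replicate 2 the highest and replicate 3 inside the WT range. The coefficient of variation was 2.23% in WT and 49.0% in bKO, and 3.37% of 10203 genes had a wider log2 range within bKO. The log2 difference was -0.17 (SE 0.41, 95% interval -1.14 to 0.80), and 0.18 without bKO replicate 1.

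Irf4, the factor that binds with BATF-JUN dimers in effector Tregs, had the same outlying library. It stood at 38.2, 31.0 and 25.5 CPM in WT and at 11.7, 39.3 and 25.4 CPM in bKO. Replicate 1 of bKO was at 36.2% of the mean of the other bKO libraries for Irf4 and at 36.0% for Prdm1, and 0.657% and 0.647% of 10203 genes were as low or lower there. For Gata3 the value was 68.1%. The log2 difference of Irf4 was -0.31 (SE 0.42, 95% interval -1.30 to 0.68), and 0.032 without bKO replicate 1. Prdm1 and Irf4 are also plasma cell genes, and the summed plasma cell markers were 589, 1880 and 284 CPM in WT and 1004, 1640 and 548 CPM in bKO, so the library with the lowest Prdm1 and Irf4 had more of these markers than bKO replicate 3. The part of plasma cell RNA in these values was not tested.

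**Figure D3:**
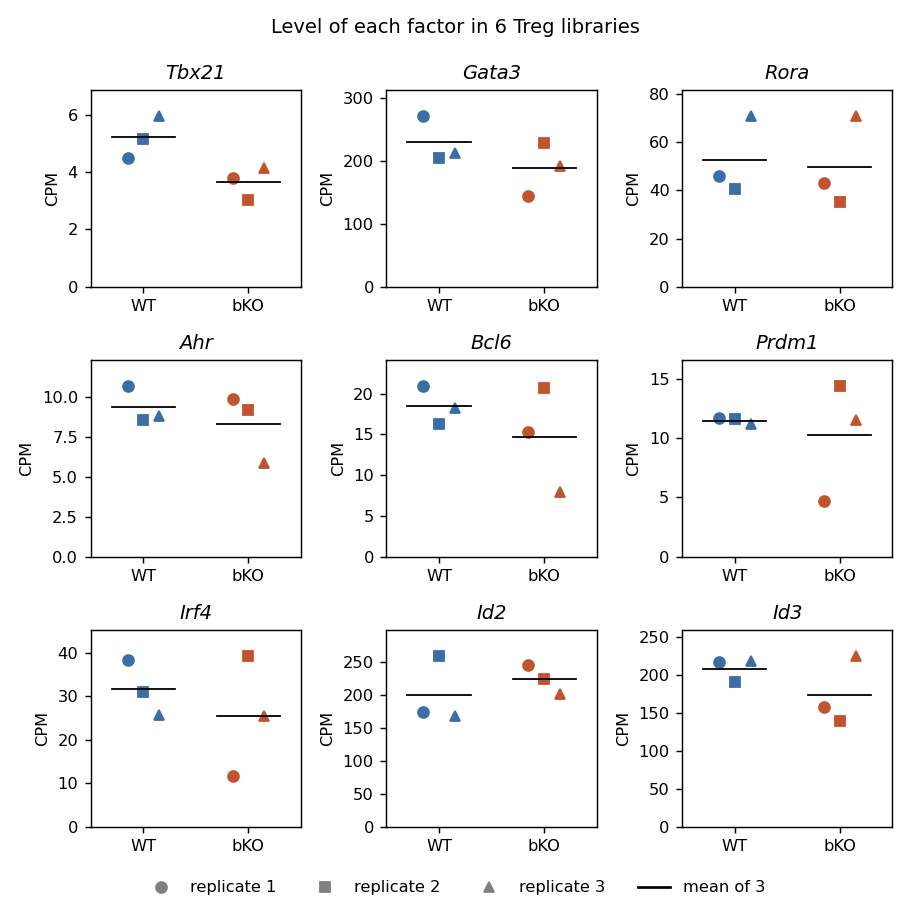
CPM of each member in the 3 WT and 3 bKO libraries, with marker shape for the replicate and a line at the mean of 3, on axes that start at 0. Tbx21 is the member whose genotypes do not overlap, bKO replicate 1 is the lowest point for Gata3, Prdm1 and Irf4, and bKO replicate 3 is the lowest for Ahr and Bcl6.

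Effector Treg genes had the same library at the bottom. Of 25 tested, 18 had a lower mean in bKO (median log2 difference -0.41), 20 had bKO replicate 1 as the lowest bKO library, and for 15 it was the lowest of all 6. For all 10203 genes with a mean of 10 CPM or more, bKO replicate 1 was the lowest bKO library in 33.7% and the lowest of the 6 in 18.8%. The summed level of the list was 2911, 2903 and 3191 CPM in WT and 1596, 2378 and 2938 CPM in bKO replicates 1 to 3. Without bKO replicate 1 the median log2 difference was -0.16, with 17 lower. The list shares 3 of its 25 genes with the 10 Treg markers, so the sums are not independent. The Treg markers had this pattern too, with bKO replicate 1 the lowest of the 6 libraries for all 10. Its median level was 50.3% of the mean of the other bKO libraries for these markers, and 55.9% for the effector Treg genes. Il10, the gene of the suppressive cytokine, stood at 8.18, 4.70 and 3.94 CPM in WT and at 1.19, 2.31 and 1.62 CPM in bKO, so all bKO libraries lay below WT (log2 difference -1.71, SE 0.46, unadjusted p = 0.00761, adjusted p = 0.9999). Tigit, an inhibitory receptor gene, was at 89.4 ± 1.47 and 67.3 ± 24.2 CPM with no overlap, bKO replicate 3 being just below WT at 87.0 CPM.

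Others of this list overlapped: the costimulatory receptor Icos (246 ± 48.7 and 171 ± 58.1 CPM), the late effector marker Klrg1 (48.2 ± 17.5 and 38.1 ± 13.9 CPM), Tnfrsf4, the gene of OX40 (372 ± 36.8 and 265 ± 118 CPM), and Ikzf2, the gene of Helios (456 ± 29.8 and 324 ± 148 CPM). With Il10 and Tigit, 5 genes did not overlap, the remaining 3 being Ccr8, Cd83 (160 ± 15.5 and 110 ± 22.6 CPM) and Capg (241 ± 15.2 and 187 ± 46.6 CPM), named after their values were seen and all lower in bKO. Over all genes 4.07% were lower with no overlap. EdgeR called 0 of the 25.

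**Figure D4:**
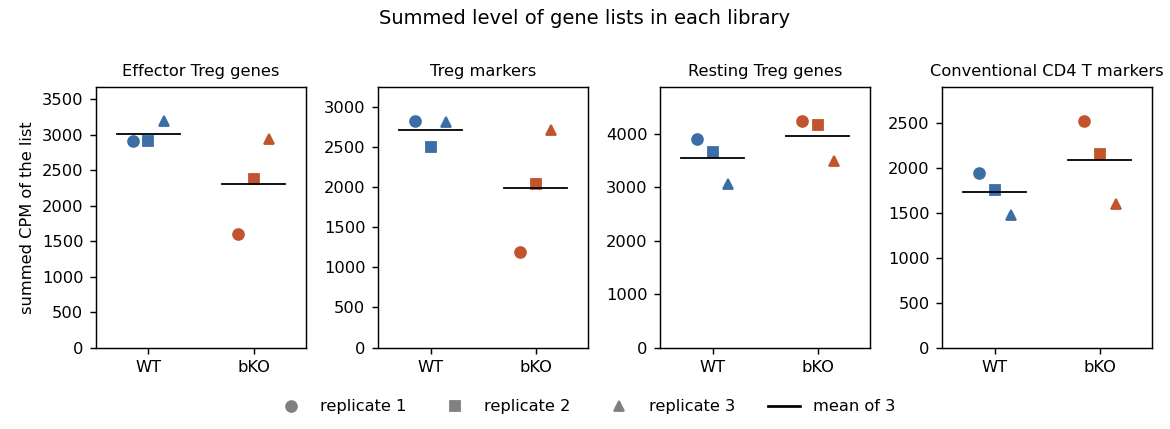
Summed CPM of 4 gene lists in each library, with marker shape for the replicate and a line at the mean of 3, on axes that start at 0. In bKO replicate 1 the effector Treg genes (1596 CPM) and Treg markers (1194 CPM) are lowest and the resting Treg genes (4235 CPM) and conventional CD4 T cell markers (2526 CPM) highest, the first pair of lists sharing 3 genes and the second pair 8.

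Of the IRF family and IRF4 partners, 14 of 22 tested had a lower mean in bKO (median log2 difference -0.097), and edgeR called 0. Batf and Nfatc1, given above, and Jun (8.45 ± 1.75 and 5.30 ± 0.519 CPM), named after its values were seen, were the genes with no overlap, all lower. The share lower with no overlap over all genes was 4.07%. The median was -0.014 without bKO replicate 1, -0.19 without bKO replicate 3, and -0.062 and -0.044 when WT replicate 1 or 2 was left out. Irf1, which interferons induce, was at 245 ± 51.4 and 247 ± 32.6 CPM, and Ikzf1, the gene of Ikaros, at 194 ± 9.46 and 213 ± 29.1 CPM. Irf8 (24.7, 107 and 25.9 CPM in WT, 57.8, 81.3 and 77.9 CPM in bKO) and Spib (7.08, 23.9 and 3.96 CPM in WT, 23.7, 14.1 and 13.1 CPM in bKO) are also B cell genes, and both were highest in WT replicate 2, as the B cell markers were. Spib is itself among the 10 summed B cell markers, so its match is partly built in. Within bKO, Irf8 was lowest in replicate 1, where the B cell markers summed highest, at 729 CPM. The part of B cell RNA in these values was not tested. Batf3 stayed under 3 CPM in each library.

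Id2 and Id3 differed in which genotype had the higher mean. Id2, which effector T cells express, stood at 173, 259 and 167 CPM in WT and at 245, 223 and 201 CPM in bKO (log2 difference 0.16, SE 0.19, unadjusted p = 0.435). WT replicate 2 was above all bKO libraries and the other WT libraries were below them. Id3, which resting and central Tregs express, stood at 217, 191 and 218 CPM in WT and at 157, 139 and 225 CPM in bKO (log2 difference -0.26, SE 0.19, unadjusted p = 0.215). Replicates 1 and 2 of bKO were below WT and replicate 3 was above.

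Per length, the Id2 to Id3 ratio was 0.587, 0.998 and 0.562 in WT and 1.145, 1.18 and 0.656 in bKO replicates 1 to 3. The means were 0.716 ± 0.245 and 0.994 ± 0.294, and the genotypes overlapped through WT replicate 2 and bKO replicate 3. For Id2 the log2 difference was 0.39 without WT replicate 2 (edgeR unadjusted p = 0.0283, adjusted p = 0.841), and for Id3 it was -0.50 without bKO replicate 3 (edgeR unadjusted p = 0.0119, adjusted p of 1). Of the fits with a library left out, these were the ones with the largest difference for each gene. The edgeR p of 0.0119 was the smallest unadjusted p among 135 tests of members in alternative fits. Over the libraries left out in turn the range was 0.039 to 0.39 for Id2 and -0.50 to -0.12 for Id3.

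The E proteins that ID2 and ID3 bind overlapped between genotypes. Tcf3, the gene of E2A, was at 23.2 ± 6.80 and 19.1 ± 11.7 CPM, and Tcf12, the gene of HEB, at 54.5 ± 13.5 and 45.9 ± 4.14 CPM. Tcf4, the gene of E2-2, was at 6.62, 58.4 and 9.19 CPM in WT and at 33.4, 42.7 and 26.8 CPM in bKO, highest in WT replicate 2. It is also a gene of B cells and plasmacytoid dendritic cells, and WT replicate 2 had the highest B cell markers. Within bKO, Tcf4 was highest in replicate 2 and the summed B cell markers in replicate 1. The part of such cells in the Tcf4 values was not tested. Id1 reached 1.39 CPM at most. Bhlhe40, which T cell receptor signals induce, was at 69.2, 49.6 and 39.1 CPM in WT and at 18.4, 54.3 and 39.6 CPM in bKO. Of 11 genes of this list tested 4 had a lower mean (median log2 difference 0.055), and edgeR called 0. Without bKO replicate 1 the number was 8, without WT replicate 3 it was 7, and without bKO replicate 3 it was 2. The median was -0.18, -0.032 and 0.41 in these fits, -0.13 without WT replicate 1, 0.24 without WT replicate 2 and 0.12 without bKO replicate 2.

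Resting Treg genes mostly had higher means in bKO. Of 17 tested 14 were higher and 3 lower (median log2 difference 0.18, and 0.051 without bKO replicate 1), and edgeR called 0. Without WT replicate 1 the number lower was 1. Tcf7, the gene of TCF-1, was at 390, 356 and 370 CPM in WT and at 589, 406 and 351 CPM in bKO, and Lef1 at 236, 217 and 180 CPM in WT and at 346, 235 and 204 CPM in bKO, both highest in bKO replicate 1. The trafficking factor Klf2 (40.9 ± 10.7 and 43.5 ± 12.5 CPM) and Ets1 (997 ± 176 and 1046 ± 161 CPM) overlapped. Il7r, the gene of the IL-7 receptor chain, named after its values were seen, was higher in every bKO library (142 ± 32.0 and 227 ± 27.6 CPM). Tcf7, Lef1 and Il7r are also among the conventional CD4 T cell markers, and in all 8 of the 17 resting Treg genes stand among those 10 markers, so the sums partly hold the same values.

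Among other lineage factors 20 of 29 tested had a lower mean in bKO (median log2 difference -0.16), with 0 called. The median was -0.064 without WT replicate 3 and -0.090 without bKO replicate 1. Stat4, which relays IL-12 signals (97.7 ± 22.6 and 85.3 ± 15.4 CPM), Stat5b, which relays IL-2 signals (91.6 ± 7.49 and 94.1 ± 13.2 CPM), and Runx3 (27.6 ± 5.29 and 26.6 ± 5.34 CPM) overlapped between genotypes. Zbtb7b, which encodes the CD4 lineage factor ThPOK (31.9 ± 4.23 and 25.2 ± 3.54 CPM), and Gfi1 (10.5 ± 1.43 and 6.93 ± 2.46 CPM) were lower with no overlap. With Zeb2, which was higher, they made up the 3 genes of this list that did not overlap, Gfi1 and Zeb2 being named after their values were seen. The shares over all genes were 4.07% lower and 3.68% higher with no overlap.

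The members were also compared by profile, as the root mean square difference of log2 CPM centred on each gene's mean over the 6 libraries. Of the 36 pairs of members Prdm1 and Irf4 were the closest, at 0.19, followed by Tbx21 and Id3 at 0.20. A gene at the same level in every library would lie 0.52 from Prdm1 and 0.58 from Irf4. It would lie only 0.31 from Tbx21 and 0.26 from Id3, so 0.20 is a weaker likeness for that pair. The likeness of Prdm1 and Irf4 rests largely on bKO replicate 1, the largest deviation of each, at -1.13 and -1.18. In WT replicates 1 to 3 they were less alike, with Prdm1 at 0.18, 0.17 and 0.12 and Irf4 at 0.52, 0.22 and -0.058. Rora and Bcl6 were the farthest apart, at 0.77. Against 120 programme genes with a mean of 10 CPM or more, Irf4 was nearest to Bhlhe40 (0.11) and to Nt5e, the gene of CD73 (0.16), where the median over the 120 was 0.61. Prdm1 was nearest to the IL-12 receptor chain Il12rb1 (0.12) and Tox (0.16), with a median of 0.54. In bKO replicate 1 Il12rb1 stood at 7.53 CPM and Tox at 52.4 CPM, against at least 15.5 CPM and 102.5 CPM in the other libraries.

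For the other members the nearest genes were Zbtb7b (0.11) for Tbx21, Cd200 (0.14) and Pdcd1 (0.16) for Gata3, and Tnf (0.16) and Jund (0.22) for Rora. They were Il6st (0.13) and Cbfb (0.17) for Ahr, Il6st (0.26) and Il4ra (0.33) for Bcl6, Dusp6 (0.15) and Hes6 (0.16) for Id2, and Foxp3 (0.11) and Nfatc2 (0.13) for Id3. From a gene at the same level in every library, Id2 lay 0.24, Id3 0.26, Ahr 0.27, Gata3 0.28, Tbx21 0.31, Rora 0.39 and Bcl6 0.47. The distances listed therefore do not rank likeness from one member to another. The profiles rest on 6 libraries that share their depth and cell makeup with every gene, so nearness is a description.

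**Figure D5:**
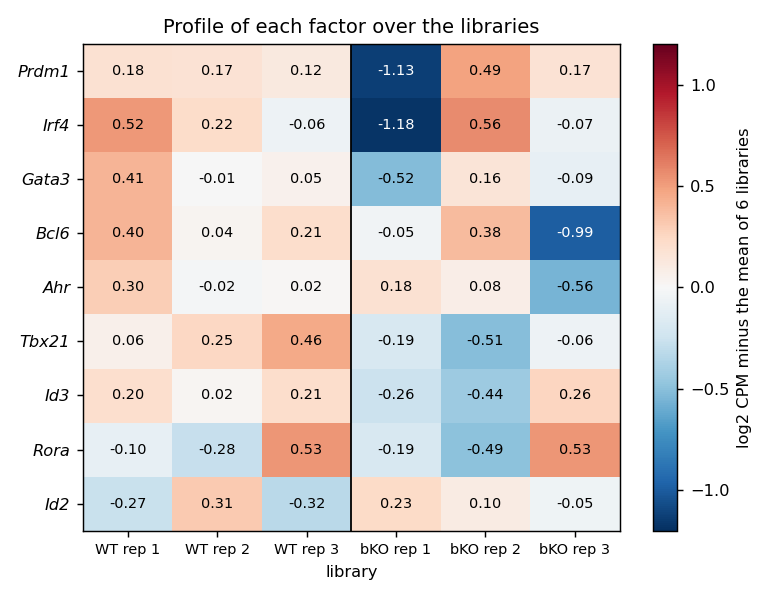
Log2 CPM of each member in each library minus its mean over the 6 libraries, blue below and red above, with a line between WT and bKO. The lowest values are -1.18 and -1.13 for Irf4 and Prdm1 in bKO replicate 1 and -0.99 for Bcl6 in bKO replicate 3.

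The names of the count tables carry a number that places the libraries in 2 sets, A (WT replicates 1 and 2, bKO replicate 2) and B (WT replicate 3, bKO replicates 1 and 3), and no label says what it stands for. The log2 difference of Tbx21 was -0.66 within set A and -0.58 within set B, and that of Id3 was -0.55 and -0.21. Id2 was higher in bKO in both sets, by 0.076 and 0.41, and Gata3 (-0.043 and -0.36), Rora (-0.30 and -0.36) and Ahr (-0.054 and -0.20) were lower in both. Prdm1 (0.31 and -0.60), Irf4 (0.19 and -0.57) and Bcl6 (0.16 and -0.72) changed sign between the sets. Set A holds 1 bKO library and set B 1 WT library, so the values within a set carry no test. In an edgeR fit of all 6 libraries with the set as a term, the adjusted p of every member was 0.993 or more, and the smallest unadjusted p values were 0.0901 for Id3 and 0.0947 for Tbx21. The log2 difference was then -0.63 for Tbx21, -0.37 for Id3, -0.31 for Rora, -0.20 for Gata3 and 0.23 for Id2. It was -0.25 for Bcl6, -0.14 for Irf4, -0.11 for Ahr and -0.074 for Prdm1. The estimate of Rora was thus farther from 0 than without the term, and those of Irf4 and Prdm1 were nearer to it.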

How the data were processed

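RNA was sequenced from 6 libraries of flow-sorted Tregs with the SMARTer ultra-low-input and NEBNext ChIP-Seq kits as single reads of 50 bases, per the labels' protocols. The authors deposited raw read counts per Ensembl gene, made with bcl2fastq 2.19.0.316, STAR 2.3 and featureCounts on mm10, per the submitters' processing notes. Which annotation was counted, with which options and whether by strand, is not given here. No molecular identifiers are named, so PCR copies count as reads, and intervals on counts cover counting error only.

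Symbols, exons and lengths came from GENCODE M21 on GRCm38, the assembly mm10 names. Of 53379 identifiers 53274 matched without version. The comparison of bKO with WT used edgeR 4.0.16 in R 4.3.3. Low genes were removed by filterByExpr and libraries scaled by TMM, followed by robust quasi-likelihood F tests (two-sided) on genotype alone, with p-values adjusted by Benjamini-Hochberg over 20475 genes. CPM use TMM library sizes. Profiles use log2 CPM with a prior count of 2. Lengths are merged exons. DESeq2 1.42.0 and limma 3.58.1 were alternatives. The scripts were tested on simulated counts. The common dispersion was 0.260. No replicate pair agreed within sampling noise (chi-square per degree of freedom of 35.8 or more for every pair of libraries).

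The members, the 10 programme lists, the 8 marker lists and the tests were chosen with earlier results of these data known. Marker lists are given as sums. Named are the members, in each programme list 4 defining genes fixed with the list and the 2 most abundant, and the 2 programme genes nearest each member in profile. Some genes that this rule names are not reported here. The programme lists share genes: 35 of 180 stand in more than 1. Of the 55 programme genes named for being defining or abundant, 19 share exon bases with another gene, and their counts are uncertain to that extent. Nothing in the labels ties each library to its own animal. The p-values therefore set the difference between genotypes only against the spread between these libraries, which may be technical.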

Additional observations from a re-analysis of the deposited data

How the results depend on the processing

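Of 153 member values under the alternatives, 143 kept the direction of the 6-library fit and 0 of the 135 with a test passed (smallest adjusted p = 0.841). Opposite in sign were Rora with library quality weights (0.010), and Bcl6 (0.16), Prdm1 (0.31) and Irf4 (0.19) within set A of the table names. With each library left out in turn, the log2 difference ranged from -0.43 to 0.19 for Rora (0.19 without WT replicate 3, 0.0070 without bKO replicate 1, 0.12 without bKO replicate 2), from -0.31 to 0.027 for Ahr, from -0.50 to 0.18 for Prdm1 and from -0.77 to 0.032 for Irf4. The number of members lower in bKO ranged from 5 to 8 and was 5 within set A. DESeq2 called 37 genes where edgeR called 0, as did every other alternative with a test. The cause was not tested. Genes lower in bKO numbered 7 to 14 for Th1, 2 to 8 for E protein and 1 to 4 for resting Treg genes with a library left out, and 5 for the last within set A. Over the longest coding transcript, levels per kilobase were 71.5 and 58.5 (WT and bKO) for Gata3, 5.25 and 4.16 for Bcl6 and 163 and 136 for Id3, 2.18 for Prdm1 in WT and 113 for Id2 in bKO, since shorter lengths raise them. Bcl6 then stood above Rora in WT. Correlations of deviations between WT and bKO libraries of the same replicate number were -0.20, 0.43 and 0.15 for numbers 1 to 3 over 10203 genes. For libraries of unlike numbers they ran from -0.42 to 0.26, so these values do not settle whether the numbers pair the libraries. With the replicate block 0 genes were called, and no member changed sign (Tbx21 -0.52, Id3 -0.29).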

Other observations

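Cyp1a1, the target that the AHR induces most directly, had 161 counts in bKO replicate 3 (4.34 CPM) and 0 counts in each of the other 5 libraries, where a count of 0 allows up to 3 counts. Ahr itself was lowest in that library, at 5.90 CPM, and the AHR repressor gene Ahrr stood at 0.593 CPM there, at 0.238 and 0.175 CPM in bKO replicate 1 and WT replicate 2, and at 0 in the remaining libraries. Il23r was uneven in a like way, at 3.34 CPM in bKO replicate 2 and at most 0.701 CPM elsewhere. These genes were too low in most libraries to be tested, and the values stand without replication.

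The Prdm1 to Bcl6 ratio per length, of the pair of factors that repress each other in helper T cells, was 0.668, 0.858 and 0.735 in WT and 0.367, 0.839 and 1.74 in bKO replicates 1 to 3. Both ends of the range were bKO libraries: replicate 1, low in Prdm1, and replicate 3, low in Bcl6. The Gata3 to Tbx21 ratio per length was 37.7, 24.7 and 22.3 in WT and 23.7, 47.3 and 29.0 in bKO.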
